A study of Mus musculus with 18 samples.

Results

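The genes described here are 35 building blocks and regulators of motile cilia, the beating cell projections of airway ciliated cells, followed through lung injury with naphthalene in mice of 2 genotypes. They were chosen by gene symbol: a member had to be named by a probe set with a single symbol, and where a gene had several such probe sets the probe set whose mean over the 18 arrays was highest was taken. All 35 of 35 members were found among 19938 measured genes. Spef2 had 22 probe sets and every other member had 1. The arrays measured total RNA of cells labelled terminal bronchiolar epithelial cells of mouse lung, from mice of a mixed FVB/N and C57BL/6 background, all listed as naphthalene-treated, with durations of 0, 3 and 72 hr. Mice were control or Cebpa d/d, Cebpa being the gene of a C/EBP family transcription factor, and each genotype and time had 3 arrays, so that 6 groups held 18 arrays. The labels leave out which part of Cebpa the d/d allele alters, in which cells it was altered, how old the mice were or whether replicates came from different animals. P-values therefore reflect spread among these samples, part of which may be technical.

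A motile cilium is a bundle of paired microtubules around a central pair, driven by dynein motor arms and tuned by radial spokes. Ciliated cells first multiply their centrioles, dock them as basal bodies and then build cilia by intraflagellar transport, under the transcription factor Foxj1 and factors of the RFX family, which bind a sequence called the X-box. In the bronchioles ciliated cells lie among club cells, whose cytochrome P450 turns naphthalene into a toxic product. Club cells are lost after naphthalene, while ciliated cells are known to survive and to flatten over the bared wall.

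RFX factors bind the X-box, whose half-site reads GTTGCC or, on the other strand, GGCAAC, and members that change together can be looked at for it. RefSeq promoters (build GRCm38.p6, from 250 bases before to 50 bases after the transcription start) were at hand for 29 of the 35 members. The half-site lay in a promoter of 19 of these 29 members (65.5%), against 14.1% of 27025 gene symbols searched the same way on both strands. The 3 promoters below belong to members that rose between 0 and 72 hr in both genotypes and hold the half-site, which is in capitals. Each runs 5′ to 3′ on the gene's strand.
Dynlrb2, chr8:116504765-116505064, plus strand: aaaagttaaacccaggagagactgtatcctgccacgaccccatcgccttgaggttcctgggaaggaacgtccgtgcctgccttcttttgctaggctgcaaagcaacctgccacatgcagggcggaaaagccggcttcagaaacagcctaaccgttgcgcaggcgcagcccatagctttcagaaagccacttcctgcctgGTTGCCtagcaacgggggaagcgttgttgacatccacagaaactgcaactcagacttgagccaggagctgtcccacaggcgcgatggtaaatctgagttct
Tekt1, chr11:72361833-72362132, minus strand: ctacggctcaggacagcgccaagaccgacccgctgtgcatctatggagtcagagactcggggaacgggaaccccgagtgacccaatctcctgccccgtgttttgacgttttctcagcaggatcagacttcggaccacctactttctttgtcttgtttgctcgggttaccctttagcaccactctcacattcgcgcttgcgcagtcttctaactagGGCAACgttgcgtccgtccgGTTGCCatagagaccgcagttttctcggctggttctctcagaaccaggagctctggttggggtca
Efcab10, chr12:33394604-33394903, plus strand: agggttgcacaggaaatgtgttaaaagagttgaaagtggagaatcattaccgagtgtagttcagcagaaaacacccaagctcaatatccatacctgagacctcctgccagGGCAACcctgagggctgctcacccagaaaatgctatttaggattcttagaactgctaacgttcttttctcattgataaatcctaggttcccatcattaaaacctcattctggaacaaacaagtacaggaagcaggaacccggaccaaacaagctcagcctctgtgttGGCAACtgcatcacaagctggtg

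In Dynlrb2 the half-site began at position -51 from the start of transcription, in this one of the 2 listed promoters of Tekt1 at -35 and -15, and in Efcab10 at -140 and 28. The promoters of Rsph9 and Ift74, which also rose in both genotypes, did not hold these letters. For Ift80, which rose in both genotypes as well, no promoter was at hand. A longer X-box pattern, GTNNCC and GGNAAC with 0 to 3 bases between, lay in promoters of 6 of 29 members (20.7%), namely Ccno, Deup1, Zmynd10, Spef2, Tekt4 and Mns1, against 2.68% of all symbols. Half-sites can overlap such longer matches. The forkhead core TGTTTA, a letter string of the kind Foxj1 binds, was found in 8 of 29 members (27.6%) against 15.1%, and the C/EBP pattern TTGCNNAA in 3 of 29 (10.3%) against 12.2%. These are counts of letters in a window and do not show that a factor binds there.

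Values are log2 levels, so a difference of 1 is a doubling or halving, and levels of different genes are not compared because each probe set has its own brightness. Array medians over all probe sets lay between 6.48 and 6.65, and the lowest correlation between arrays of a group was 0.973. Cebpa itself was read first. Control arrays gave it levels of 7.89, 10.07 and 10.17 at 0 hr, of 10.30 to 10.52 at 3 hr and of 9.69 to 9.87 at 72 hr. Cebpa d/d arrays gave 7.83 to 8.27, then 8.07 to 8.37, and finally 9.07, 8.55 and 7.90. Replicate 1 of the control 0 hr group, called here the array labelled control 0 hr replicate 1, thus lay within the Cebpa d/d range. Results for the members that rest on this array are also given without it. The genotype difference in Cebpa over the 3 times was -1.58 ± 0.24 (SE; adjusted p = 0.00953), lower in Cebpa d/d. At single times it did not pass, with -1.31 ± 0.42 at 0 hr (adjusted p = 0.309), -2.14 ± 0.42 at 3 hr (adjusted p = 0.152) and -1.28 ± 0.42 at 72 hr (adjusted p = 0.609). The differences of Cebpa are not given without the array labelled control 0 hr replicate 1. Scgb1a1, the main secreted protein of club cells, lay between 12.55 and 12.98 on all arrays. Xist and Eif2s3y marked every 72 hr array as female, 3 of 3 in either genotype, against 1 of 3 in the other groups.

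Most members followed a common course. Their lowest group mean was in Cebpa d/d at 0 hr for 23 of 35 members and in control at 3 hr for 7. Their highest was in control at 72 hr for 29 and in Cebpa d/d at 72 hr for 5. For each array, the median deviation of the 35 members from their own means over 18 arrays was taken. In control arrays it was -0.25, 0.17 and 0.33 at 0 hr, 0.15, -0.22 and -0.60 at 3 hr, and 0.36, 0.63 and 0.51 at 72 hr. In Cebpa d/d arrays it was -0.62, -0.49 and -0.27 at 0 hr, -0.26, -0.08 and -0.26 at 3 hr, and 0.26, 0.36 and 0.25 at 72 hr. All 6 arrays at 72 hr had positive medians, and all 6 Cebpa d/d arrays at 0 and 3 hr had negative ones. Fewer ciliated cells in a sample and less RNA per ciliated cell cannot be told apart in such bulk RNA.

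**Figure D1:**
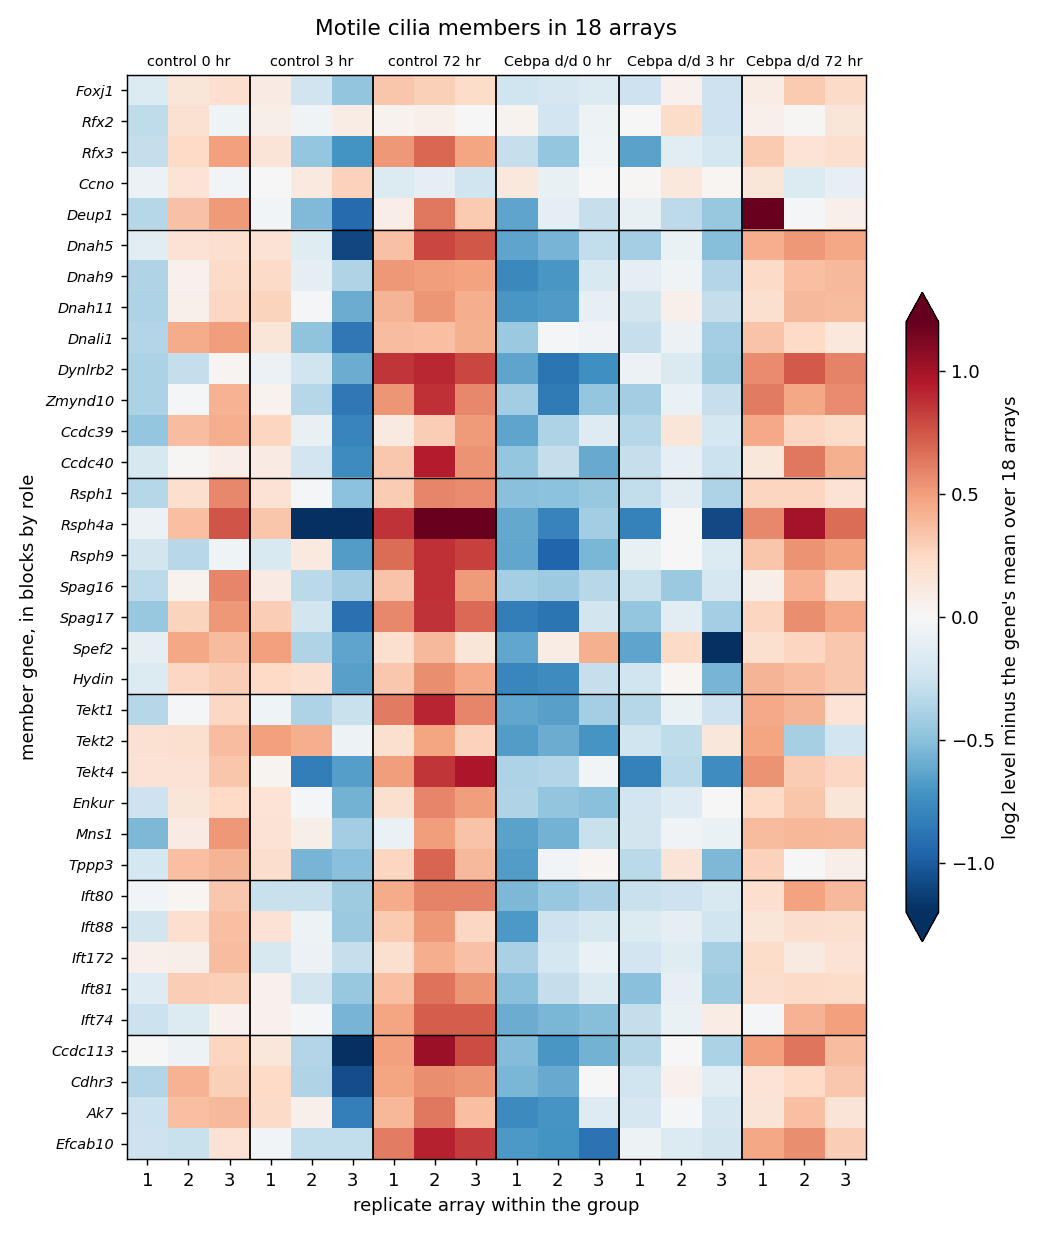
Log2 level of each of the 35 members (rows, in blocks by role) in each of the 18 arrays (columns, by group and replicate), as the deviation from the gene's mean over the 18 arrays, with red above and blue below it and the colours capped at the ends of the scale. Most rows are red in the 6 arrays at 72 hr and blue in the 3 Cebpa d/d arrays at 0 hr, where 23 members had their lowest group mean; Deup1 stands out in 1 Cebpa d/d array at 72 hr.

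Among regulators, Foxj1, the main transcription factor of motile cilia, was at 7.25, 7.57 and 7.62 in control arrays at 0 hr, at 7.51, 7.18 and 6.95 at 3 hr and at 7.75, 7.71 and 7.64 at 72 hr. Foxj1 in Cebpa d/d arrays was at 7.18, 7.22 and 7.25 at 0 hr, 7.17, 7.47 and 7.17 at 3 hr and 7.51, 7.74 and 7.65 at 72 hr. Its 6 values at 72 hr overlapped with control values at 0 hr but lay above every Cebpa d/d value at 0 and 3 hr. Rfx3, an RFX factor of ciliary genes, had group means from 7.84 in control at 3 hr to 8.74 in control at 72 hr. Rfx2, another RFX factor, stayed within group means of 6.87 to 7.03. Ccno, a cyclin needed to multiply centrioles, ran against the other members, with its lowest group mean, 6.14, in control at 72 hr and its highest, 6.44, in control at 3 hr. Its group means spanned 0.30, and its values on all arrays, 6.07 to 6.59, were low, where array medians over all probe sets were 6.48 to 6.65. Deup1, a protein of the deuterosome on which new centrioles form, was at 8.13, 8.84 and 8.997 in control at 0 hr, 8.45, 7.95 and 7.55 at 3 hr and 8.57, 9.12 and 8.80 at 72 hr. Deup1 in Cebpa d/d was at 7.85, 8.37 and 8.21 at 0 hr, 8.39, 8.17 and 8.03 at 3 hr and 10.24, 8.46 and 8.54 at 72 hr. The value of 10.24 belongs to Cebpa d/d 72 hr replicate 1 and is higher than in all other arrays.

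Of the dynein members, Dynlrb2, a light chain of the roadblock family, had all its 72 hr arrays above all earlier ones. It was at 10.77, 10.87 and 11.18 in control arrays at 0 hr, 11.08, 10.92 and 10.56 at 3 hr and 12.02, 12.06 and 11.95 at 72 hr, and in Cebpa d/d arrays at 10.52, 10.27 and 10.42 at 0 hr, 11.09, 10.98 and 10.73 at 3 hr and 11.72, 11.89 and 11.74 at 72 hr. The lowest of the 72 hr arrays, 11.72, belonged to Cebpa d/d and the highest of the earlier ones, 11.18, to control at 0 hr. Dnah5, a heavy chain of the outer dynein arm, was at 8.85, 9.17 and 9.20 in control at 0 hr, 9.16, 8.85 and 7.90 at 3 hr and 9.34, 9.79 and 9.74 at 72 hr. Dnah5 in Cebpa d/d was at 8.36, 8.44 and 8.70 at 0 hr, 8.59, 8.91 and 8.48 at 3 hr and 9.43, 9.51 and 9.46 at 72 hr, so that 72 hr was again above all earlier arrays. Zmynd10, which helps to assemble dynein arms in the cytoplasm, was at 6.78, 7.14 and 7.58 at 0 hr, 7.20, 6.82 and 6.31 at 3 hr and 7.69, 8.04 and 7.74 at 72 hr in control, and at 6.75, 6.32 and 6.70 at 0 hr, 6.74, 7.08 and 6.88 at 3 hr and 7.79, 7.63 and 7.73 at 72 hr in Cebpa d/d. The outer arm heavy chain Dnah9 had group means between 8.22 in Cebpa d/d at 0 hr and 9.27 in control at 72 hr. Dnah11, another outer arm heavy chain, lay between 8.27 and 9.22 in the same 2 groups. The inner arm chain Dnali1 ran from 8.88 in control at 3 hr to 9.67 in control at 72 hr. Ccdc40, which with Ccdc39 sets the spacing at which inner arms attach, ran from 7.37 to 8.42, while Ccdc39 ran from 10.14 in Cebpa d/d at 0 hr to 10.83 in Cebpa d/d at 72 hr.

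Radial spoke heads were represented by Rsph1, Rsph4a and Rsph9. Rsph1 was at 10.53, 11.06 and 11.44 in control at 0 hr, 11.04, 10.84 and 10.37 at 3 hr and 11.17, 11.46 and 11.43 at 72 hr, against 10.37, 10.37 and 10.41 at 0 hr, 10.57, 10.74 and 10.49 at 3 hr and 11.12, 11.12 and 11.04 at 72 hr in Cebpa d/d. The 3 Cebpa d/d arrays at 0 hr lay below every control array at 0 hr. Rsph9 was at 9.31, 9.20 and 9.49 at 0 hr, 9.35, 9.65 and 8.87 at 3 hr and 10.20, 10.41 and 10.36 at 72 hr in control, and at 8.91, 8.59 and 8.98 at 0 hr, 9.44, 9.53 and 9.38 at 3 hr and 9.87, 10.07 and 10.02 at 72 hr in Cebpa d/d. Its 72 hr arrays were above all earlier ones in both genotypes. Rsph4a varied more: 9.77, 10.20 and 10.59 in control at 0 hr, 10.16, 8.62 and 7.88 at 3 hr and 10.70, 11.05 and 11.04 at 72 hr, and 9.22, 9.03 and 9.41 at 0 hr, 9.03, 9.84 and 8.75 at 3 hr and 10.41, 10.83 and 10.50 at 72 hr in Cebpa d/d. The SD of its 3 control arrays at 3 hr was 1.16, more than for any other member in any group. The central pair genes Spag16, Spag17 and Hydin had their highest group means in control at 72 hr, 6.95, 9.28 and 9.55, and their lowest in Cebpa d/d at 0 hr, 5.98, 7.94 and 8.50. Spef2, also of the central pair, had group means from 9.65 to 10.45 on the probe set used.

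Of the tektins, filament proteins inside the paired microtubules, Tekt1 was at 8.56, 8.90 and 9.16 at 0 hr, 8.86, 8.54 and 8.64 at 3 hr and 9.53, 9.83 and 9.50 at 72 hr in control. Tekt1 in Cebpa d/d was at 8.29, 8.26 and 8.50 at 0 hr, 8.57, 8.83 and 8.66 at 3 hr and 9.36, 9.32 and 9.07 at 72 hr. Tekt2 was at 7.67, 7.68 and 7.86 at 0 hr, 7.99, 7.93 and 7.44 at 3 hr and 7.68, 7.97 and 7.77 at 72 hr in control, and at 6.83, 6.90 and 6.78 at 0 hr, 7.25, 7.19 and 7.63 at 3 hr and 7.97, 7.09 and 7.26 at 72 hr in Cebpa d/d. The 2 courses differed: Tekt1 was highest at 72 hr in both genotypes, whereas Tekt2 had nearly equal group means at the 3 times in control and stood out by its low values in Cebpa d/d at 0 hr. Tekt4 was at 7.63, 7.63 and 7.79 at 0 hr, 7.49, 6.62 and 6.79 at 3 hr and 7.95, 8.31 and 8.43 at 72 hr in control and at 7.08, 7.11 and 7.42 at 0 hr, 6.64, 7.13 and 6.71 at 3 hr and 7.99, 7.76 and 7.71 at 72 hr in Cebpa d/d, lowest at 3 hr in both. Enkur and Mns1, proteins inside the paired microtubules, had lowest group means of 9.46 and 10.16 in Cebpa d/d at 0 hr and highest ones of 10.34 and 11.05 at 72 hr. Tppp3, a tubulin polymerisation protein, ran from 9.11 to 9.84.

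All 5 intraflagellar transport members belong to the complex that carries cargo towards the ciliary tip. Ift80 was at 8.21, 8.26 and 8.56 in control at 0 hr, 7.97, 7.97 and 7.81 at 3 hr and 8.68, 8.83 and 8.83 at 72 hr. Ift80 in Cebpa d/d was at 7.70, 7.78 and 7.85 at 0 hr, 7.97, 7.99 and 8.05 at 3 hr and 8.44, 8.72 and 8.62 at 72 hr. The Cebpa d/d arrays at 0 hr did not overlap with the control arrays at 0 hr, and neither did the control arrays at 3 hr. Ift74 was at 9.20, 9.29 and 9.51 at 0 hr, 9.51, 9.45 and 8.90 at 3 hr and 9.93, 10.18 and 10.19 at 72 hr in control and at 8.86, 8.92 and 8.95 at 0 hr, 9.17, 9.38 and 9.55 at 3 hr and 9.45, 9.88 and 9.95 at 72 hr in Cebpa d/d. Ift88, Ift81 and Ift172 had their highest group means in control at 72 hr, 9.70, 10.02 and 8.22. Their lowest were 8.96 for Ift88 in Cebpa d/d at 0 hr, 9.16 for Ift81 and 7.63 for Ift172, both in Cebpa d/d at 3 hr.

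Of the remaining members, Efcab10 was at 9.02, 9.005 and 9.44 in control at 0 hr, 9.24, 8.97 and 8.98 at 3 hr and 9.89, 10.19 and 10.11 at 72 hr, and at 8.58, 8.56 and 8.38 at 0 hr, 9.21, 9.11 and 9.05 at 3 hr and 9.73, 9.83 and 9.57 at 72 hr in Cebpa d/d. Its 72 hr arrays were above all earlier ones, and its Cebpa d/d arrays at 0 hr below all others. Ccdc113, a protein of cilia and centriolar satellites, was at 9.09, 9.02 and 9.35 at 0 hr, 9.22, 8.74 and 7.80 at 3 hr and 9.57, 10.12 and 9.87 at 72 hr in control and at 8.57, 8.38 and 8.52 at 0 hr, 8.74, 9.09 and 8.71 at 3 hr and 9.58, 9.73 and 9.45 at 72 hr in Cebpa d/d. Cdhr3, a cadherin of ciliated airway cells, had group means from 9.61 in control at 3 hr to 10.52 in control at 72 hr. Ak7, an adenylate kinase of cilia, ran from 8.90 in Cebpa d/d at 0 hr to 9.91 in control at 72 hr.

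**Figure D2:**
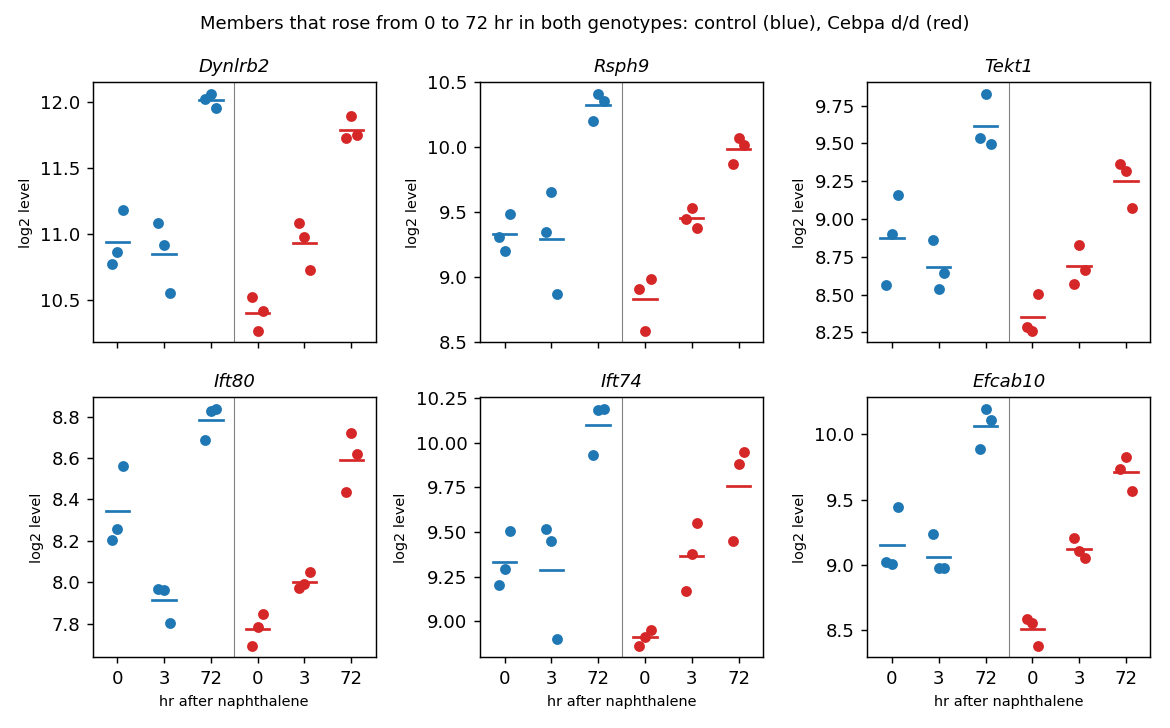
Log2 level (vertical axis) of the 6 members that rose between 0 and 72 hr in both genotypes, with a point for each array, a line for each group mean, control in blue and Cebpa d/d in red (horizontal axis: hr after naphthalene). Dynlrb2, Rsph9 and Efcab10 have every 72 hr array above every array at 0 and 3 hr.

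The genotypes were first set against each other at 0 hr, to see how far the members differed between Cebpa d/d and control samples at the start of the course. All 35 members had lower means in Cebpa d/d, with a median difference of -0.50, where the median over all genes was 0.02 and 44.7% of genes were below 0. A member was called higher or lower (between times, rose or fell) at a limma p under 0.05 after Benjamini-Hochberg adjustment over all 19938 genes. Ift80 was lower, with a difference of -0.57 ± 0.10 (SE; adjusted p = 0.0157), and so was Efcab10, with -0.65 ± 0.12 (SE; adjusted p = 0.0269). They were the 2 members called lower, and 0.01% of all genes were called lower. Arrays did not overlap, with Cebpa d/d lower, for 19 of 35 members, against 5.48% of all genes. At an unadjusted p under 0.05, 25 members were lower, against 4.03% of genes. The tektin Tekt2 had a larger difference that did not pass, -0.90 ± 0.19 (SE; adjusted p = 0.0551). Rsph4a, named after its value was seen, had the largest difference of all members, -0.96, and did not pass. Dynlrb2 (-0.54 ± 0.13, adjusted p = 0.135), Rsph1 (-0.63 ± 0.18, adjusted p = 0.25), Dnah5 (-0.57 ± 0.23, adjusted p = 0.495) and Foxj1 (-0.26 ± 0.13, adjusted p = 0.616) did not pass either. By role, the median difference was -0.65 for the 4 genes of no other role group, -0.63 for radial spoke and central pair genes, -0.51 for dynein genes, -0.51 for tektins and other microtubule proteins, -0.46 for intraflagellar transport and -0.26 for the regulators.

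The 3 Cebpa d/d arrays at 0 hr also carried transcripts of heart muscle. The median deviation of 15 cardiac muscle markers in them was 2.75, 2.13 and 1.51, against 0.18, 0.38 and -0.61 in control arrays at 0 hr, and 10 of 15 were called higher, against 0.326% of all genes. The mean level over this list was 9.50 to 10.39 in Cebpa d/d and 7.33 to 8.64 in control at 0 hr, and their part in the members' difference was not tested. By replicate 1, 2 and 3, the member medians were -0.62, -0.49 and -0.27 in Cebpa d/d and -0.25, 0.17 and 0.33 in control at 0 hr. Leaving out the array labelled control 0 hr replicate 1 gave a median of -0.66, with 4 members called lower. Ift80 was then at -0.63 (adjusted p = 0.0135) and Efcab10 at -0.72 (adjusted p = 0.0234), and Rsph1 passed at -0.87 (adjusted p = 0.0199). Neither Ift80 nor Efcab10 passed without control 0 hr replicate 3 or without Cebpa d/d replicate 1 or replicate 2, and Efcab10 did not without Cebpa d/d replicate 3 (adjusted p up to 0.128 and 0.193). With array weights 18 members were called lower, and with the 2 groups at 0 hr fitted alone 0 were, so that neither Ift80 nor Efcab10 passed. The shares of all genes called under these settings are not given, nor are those under other settings in the comparisons below. Changed counts are therefore not read as particular to the members.

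At 3 hr after naphthalene the median difference between genotypes was 0.01, with 20 members above 0 and 15 below, against a median of -0.02 over all genes, of which 56% were below 0. In limma 0 of 35 members passed, with or without array weights, as did 0.015% of all genes, and 1 member had an unadjusted p under 0.05, where 2.76% of genes were lower by that rule. Tekt2 differed by -0.43 ± 0.19 (SE; adjusted p = 0.977), Cdhr3 by 0.29 ± 0.25 (SE; adjusted p = 0.986), Spef2 by -0.37 ± 0.33 (SE; adjusted p = 0.986) and Ccdc113 by 0.26 ± 0.25 (SE; adjusted p = 0.986). Over its 22 probe sets Spef2 had a median difference of -0.038, with 7 above 0. The anchors Ift80 (0.09 ± 0.10, adjusted p = 0.986), Rsph1 (-0.15 ± 0.18, adjusted p = 0.986), Efcab10 (0.06 ± 0.12, adjusted p = 0.99), Foxj1 (0.05 ± 0.13, adjusted p = 0.99) and Dnah5 (0.02 ± 0.23, adjusted p = 0.997) were near 0. Control 3 hr replicate 3 had the lowest member median of all control arrays, and without it the median genotype difference was -0.17, with 33 members below 0 and 0 called.

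At 72 hr 29 of 35 members had lower means in Cebpa d/d, with a median difference of -0.20 against 0.02 for all genes, of which 43.2% were below 0. In limma 0 of the 35 passed, with or without array weights, where 0.0602% of all genes were called lower, and 5 were lower at an unadjusted p under 0.05, against 3.24% of genes. Arrays did not overlap for 13 members, all lower in Cebpa d/d, against 6.19% of genes. The smallest unadjusted p values belonged to Efcab10 (-0.35 ± 0.12, adjusted p = 0.693), Tekt1 (-0.37 ± 0.14, adjusted p = 0.741), Rsph9 (-0.34 ± 0.15, adjusted p = 0.785) and Tekt4 (-0.41 ± 0.19, adjusted p = 0.788). Tekt2 (-0.37 ± 0.19, adjusted p = 0.812), Ift80 (-0.19 ± 0.10, adjusted p = 0.815), Rsph1 (-0.26 ± 0.18, adjusted p = 0.857), Dnah5 (-0.16 ± 0.23, adjusted p = 0.935) and Foxj1 (-0.07 ± 0.13, adjusted p = 0.959) were also below 0. The 6 members above 0 included Deup1, whose mean of 9.08 ± 1.002 (SD, n = 3) rests on Cebpa d/d 72 hr replicate 1. That array also had a lower median deviation of 9 mitosis genes, 0.57 against 1.60 and 1.25, and a higher one of 14 club cell markers, 0.17 against -0.49 and -0.33. Without it the median member difference was -0.19.

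As a mean over the 3 times, 34 of 35 members were below 0, with a median of -0.23 against 0.01 for all genes, of which 44.9% were below 0, and 1 was called lower, against 0.171% of all genes. This was Tekt2, with a difference of -0.57 ± 0.11 (SE; adjusted p = 0.038). Efcab10 (-0.31 ± 0.07, adjusted p = 0.0821), Ift80 (-0.22 ± 0.06, adjusted p = 0.156), Tekt1 (-0.29 ± 0.08, adjusted p = 0.187), Rsph1 (-0.35 ± 0.11, adjusted p = 0.246), Dnah5 (-0.24 ± 0.13, adjusted p = 0.688) and Foxj1 (-0.09 ± 0.08, adjusted p = 0.832) did not pass. The call of Tekt2 was lost without 13 of the 18 arrays in turn, with adjusted p up to 0.0983. Without the array labelled control 0 hr replicate 1, 4 members were called lower: Tekt2 (-0.58, adjusted p = 0.0284), Rsph1 (-0.43, adjusted p = 0.0292), Tekt1 (-0.35, adjusted p = 0.0381) and Efcab10 (-0.34, adjusted p = 0.0411). The share of all genes called without that array is not given, so this count is not read as particular to the members.

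**Figure D3:**
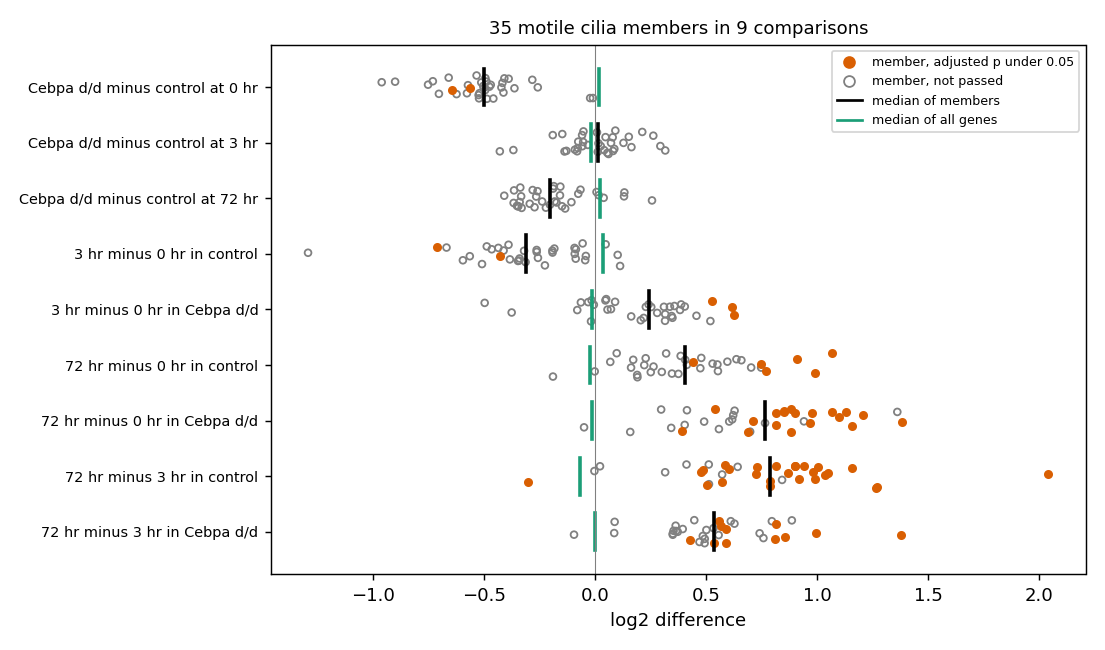
Log2 difference (horizontal axis) of each of the 35 members in 9 comparisons (rows), in orange where the adjusted p was under 0.05 and in grey otherwise, with the median of the members in black and that of all genes in green. The members' median lies at -0.50 between genotypes at 0 hr, at 0.01 at 3 hr and at -0.20 at 72 hr, and between 0.40 and 0.78 in the comparisons of 72 hr with 0 or 3 hr.

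From 0 to 3 hr in control samples most members had lower means at the later time. The median difference of the members was -0.31 against 0.03 for all genes, and 32 of 35 members were below 0, as were 43.2% of genes. Ift80 fell, with a difference of -0.43 ± 0.10 (SE; adjusted p = 0.0283), and so did Tekt4, with -0.72 ± 0.19 (SE; adjusted p = 0.04998). These were the 2 members called, and 1.62% of all genes were called lower. Rsph4a (-1.29 ± 0.40, adjusted p = 0.083) and Ift172 (-0.34 ± 0.11, adjusted p = 0.0861) did not pass, nor did Foxj1 (-0.26 ± 0.13, adjusted p = 0.26), Dnah5 (-0.44 ± 0.23, adjusted p = 0.288), Rsph1 (-0.26 ± 0.18, adjusted p = 0.432), Efcab10 (-0.09 ± 0.12, adjusted p = 0.694) or Tekt2 (0.05 ± 0.19, adjusted p = 0.909). Ift80 lost its call without control 0 hr replicate 3 or control 3 hr replicate 2 or 3 (adjusted p up to 0.124), and Tekt4 without 16 of the 18 arrays in turn (up to 0.189). Without control 3 hr replicate 3 the median was -0.07 and 0 members were called. Leaving out the array labelled control 0 hr replicate 1 gave a median of -0.50 and 2 members called. Shares of all genes called with an array left out are not given. Markers of other cells had lower means too, 10 of 10 endothelial (2 called, median -0.47), 10 of 11 fibroblast (2 called, -0.45), 10 of 11 alveolar type 1 (3 called, -0.35), 12 of 12 alveolar type 2 (1 called, -0.25) and 9 of 10 smooth muscle genes (3 called, -0.21). Neutrophil markers had a median deviation of 0.95 in control 3 hr replicate 3, against 0.52 and -0.16 in the other control arrays at 3 hr. The part of these lists in the members' difference was not tested.

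Most members in Cebpa d/d had higher means at 3 than at 0 hr. From 0 to 3 hr the median difference was 0.24 against -0.02 for all genes, with 27 members above 0, where 54% of genes were below it. Arrays at 3 hr lay above all at 0 hr for 12 members, against 10.7% of genes. Efcab10 rose by 0.61 ± 0.12 (SE; adjusted p = 0.00833), Rsph9 by 0.62 ± 0.15 (SE; adjusted p = 0.0297) and Dynlrb2 by 0.53 ± 0.13 (SE; adjusted p = 0.0348), and 2.66% of all genes were called higher. Ift74 (0.46 ± 0.16, adjusted p = 0.133), Tekt2 (0.52 ± 0.19, adjusted p = 0.152), Ift80 (0.23 ± 0.10, adjusted p = 0.253), Rsph1 (0.22 ± 0.18, adjusted p = 0.618), Dnah5 (0.16 ± 0.23, adjusted p = 0.804) and Foxj1 (0.05 ± 0.13, adjusted p = 0.91) did not pass. Over the same interval all 15 cardiac markers were called lower in Cebpa d/d, against 1.72% of all genes, and their part in the members' change was not tested. The calls of Rsph9 and Dynlrb2 were lost without 5 and 4 of the 18 arrays in turn, while Efcab10 kept its call in each of 18.

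The difference between these changes, tested as an interaction, had a median of 0.50 over the members, with 32 of 35 above 0, against -0.03 for all genes, of which 56.3% were below 0. In limma 0 members passed, as did 0% of all genes. At an unadjusted p under 0.05, 12 were higher, against 2.42% of genes, and 1 passed with array weights. Ift80 had 0.66 ± 0.14 (SE; adjusted p = 0.192), Efcab10 0.71 ± 0.18 (SE; adjusted p = 0.334), Dynlrb2 0.61 ± 0.19 (SE; adjusted p = 0.578) and Rsph9 0.67 ± 0.22 (SE; adjusted p = 0.62). Dnah5 (0.60 ± 0.33, adjusted p = 0.724), Rsph1 (0.48 ± 0.26, adjusted p = 0.724), Tekt2 (0.47 ± 0.27, adjusted p = 0.734) and Foxj1 (0.31 ± 0.18, adjusted p = 0.749) lay on the same side of 0. The interaction uses the arrays at 0 hr that also enter the genotype comparison there. Without the array labelled control 0 hr replicate 1 its median was 0.68, and that of the interaction at 72 hr, described next, was 0.45. These were the highest medians with a single array left out. The lowest were 0.29 at 3 hr, without control 3 hr replicate 3, and 0.18 at 72 hr, without control 0 hr replicate 3. The interaction at 72 hr had a median of 0.30, against 0.01 for all genes, and all 35 members above 0, where 48.4% of genes were below it, with 0 called in limma (0% of all genes were called higher) and 3 higher at an unadjusted p under 0.05, against 1.87% of genes. Ift80 (0.38 ± 0.14, adjusted p = 0.969), Hydin (0.65 ± 0.30, adjusted p = 1), Mns1 (0.65 ± 0.30, adjusted p = 1) and Tekt2 (0.54 ± 0.27, adjusted p = 1) had the smallest unadjusted p values. Efcab10 (0.29 ± 0.18, adjusted p = 1), Rsph1 (0.36 ± 0.26, adjusted p = 1), Dnah5 (0.42 ± 0.33, adjusted p = 1) and Foxj1 (0.19 ± 0.18, adjusted p = 1) did not pass either.

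Set against 0 hr, most cilia members had higher means at 72 hr in both genotypes. In control 33 of 35 members were above 0 hr, with a median difference of 0.40, and in Cebpa d/d 34 of 35 were, with a median of 0.76, while the median over all genes was -0.02 in both and 55.4% and 54% of genes were below 0. The 72 hr arrays lay above all 0 hr arrays for 19 members in control, against 13.1% of genes, and for 31 in Cebpa d/d, against 12.2%. In control 6 members rose, against 4.95% of all genes, and in Cebpa d/d 19, against 3.39%. All 6 that rose in control also rose in Cebpa d/d, where 2.23% of all genes rose in both. These were Dynlrb2, Rsph9, Tekt1, Ift80, Ift74 and Efcab10. No member fell in either genotype, where 2.2% of all genes fell in control.

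Dynlrb2 rose the most of the called members in both genotypes, by 1.07 ± 0.13 (SE; adjusted p = 0.000284) in control, a 2.10-fold change, and by 1.38 ± 0.13 (SE; adjusted p = 1.96e-05) in Cebpa d/d, a 2.60-fold change. Efcab10 rose by 0.91 ± 0.12 (SE; adjusted p = 0.000511) and 1.20 ± 0.12 (SE; adjusted p = 3.19e-05), and Rsph9 by 0.99 ± 0.15 (SE; adjusted p = 0.00134) and 1.16 ± 0.15 (SE; adjusted p = 0.000288). Tekt1 rose by 0.75 ± 0.14 (SE; adjusted p = 0.00483) and 0.90 ± 0.14 (SE; adjusted p = 0.00124), Ift74 by 0.77 ± 0.16 (SE; adjusted p = 0.00815) and 0.85 ± 0.16 (SE; adjusted p = 0.00493), and Ift80 by 0.44 ± 0.10 (SE; adjusted p = 0.0144) and 0.82 ± 0.10 (SE; adjusted p = 0.000148), in control and Cebpa d/d in that order. In Cebpa d/d the dynein genes Zmynd10 (1.13 ± 0.21, adjusted p = 0.00401), Dnah9 (0.88 ± 0.17, adjusted p = 0.00618) and Dnah5 (0.97 ± 0.23, adjusted p = 0.0206) and the spoke gene Rsph1 (0.71 ± 0.18, adjusted p = 0.033) rose too. In control Dnah5 (0.55 ± 0.23, adjusted p = 0.173) and Rsph1 (0.34 ± 0.18, adjusted p = 0.305) did not pass. Foxj1 passed in neither genotype (0.22 ± 0.13, adjusted p = 0.368 in control, 0.41 ± 0.13, adjusted p = 0.0855 in Cebpa d/d), and neither did Tekt2 (0.07 ± 0.19, adjusted p = 0.887 and 0.60 ± 0.19, adjusted p = 0.0833).

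By role, the members that rose in Cebpa d/d were 6 of 8 dynein genes, 4 of 7 spoke and central pair genes, 3 of 6 tektins and other microtubule proteins, 4 of 5 transport genes, 2 of the 4 remaining genes and 0 of 5 regulators. In control they were 1, 1, 1, 2, 1 and 0. Spef2, whose probe set did not pass, had differences above 0 in all 22 of its probe sets in Cebpa d/d, from 0.23 to 1.23, and in 21 of 22 in control.

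The calls of Dynlrb2, Efcab10, Rsph9, Tekt1 and Ift74 held in both genotypes without any 1 of the 18 arrays. Ift80 lost its call in control without the array labelled control 0 hr replicate 1 or any of control 0 hr replicate 2 and control 72 hr replicates 2 and 3 (adjusted p up to 0.0663). In control, leaving out the array labelled control 0 hr replicate 1 gave a median of 0.23 and 5 members called, and leaving out control 3 hr replicate 1 or 3, which enter this comparison through the shared spread alone, gave 10. The count in Cebpa d/d fell to between 8 and 11 without 0 hr replicate 1 or 2 or without 72 hr replicate 2 or 3, and Dnah5 lost its call in each of these cases. Rsph1 lost its call in Cebpa d/d without any 1 of the 6 arrays compared (adjusted p up to 0.121). Because the 72 hr arrays were all from females, the comparison was repeated in female arrays, with 1 array at 0 hr in each genotype, whose spread is assumed to be that of the other groups. In control that array was replicate 3, which had the highest member median of its group, 0.33. In Cebpa d/d it was replicate 1, which had the lowest of its group, -0.62. The median difference from 0 to 72 hr was then 0.19 in control and 0.90 in Cebpa d/d. A fit of group and sex over all 18 arrays gave members a median female minus male difference of 0.11. It was above 0 for 32 of 35 members. Over all genes the median was 0.0019, with 10144 of 19938 above 0. With sex as a covariate the medians from 0 to 72 hr were 0.33 and 0.67, and 5 and 8 members were called. The shares of all genes called with changed arrays or covariates are not given, so these counts are not read as particular to the members. In Cebpa d/d 14 of 15 cardiac markers fell, with a median difference of -2.74, against 1.42% of all genes called lower. In control 0 of 15 cardiac markers were called, with a median of -0.61. Mitosis genes rose in each genotype, 9 of 9, with a median of 1.67 in control arrays and 1.77 in Cebpa d/d ones, against the 4.95% and 3.39% of genes that rose. Of 14 club cell markers 5 fell in control, where 2.2% of genes fell, and 1 in Cebpa d/d. Of 10 endothelial markers 6 fell in control and 3 in Cebpa d/d. Their part in the members' change was not tested.

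**Figure D4:**
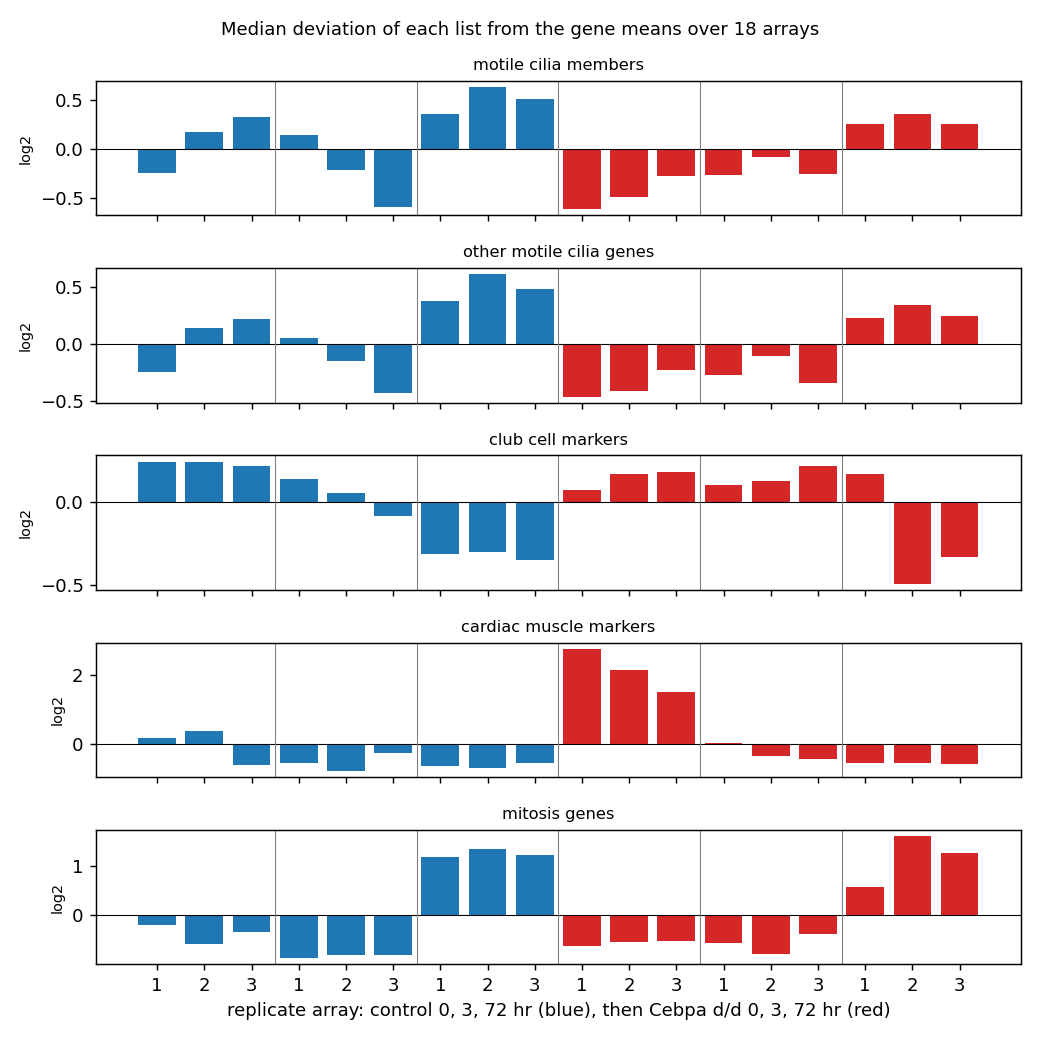
Median deviation of each list of genes from their means over 18 arrays (log2, vertical axes), a bar for each array, control in blue and Cebpa d/d in red, for the members, other motile cilia genes, club cell markers, cardiac muscle markers and mitosis genes. The members and the other cilia genes have the same sign in 18 of 18 arrays, cardiac markers reach 2.75, 2.13 and 1.51 in Cebpa d/d at 0 hr, and mitosis genes are positive in all 6 arrays at 72 hr.

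Set against 3 hr, control arrays at 72 hr had more members called than any other comparison made here: 25 members rose, against 11.2% of all genes, and 1 fell, against 8.57%, with a median of 0.78 against -0.07 for all genes. The arrays did not overlap, with 72 hr higher, for 29 members, against 17.1% of genes. Ift80 rose by 0.87 ± 0.10 (SE; adjusted p = 4.31e-05), Dynlrb2 by 1.16 ± 0.13 (SE; adjusted p = 4.43e-05), Efcab10 by 1.001 ± 0.12 (SE; adjusted p = 7.42e-05) and Rsph9 by 1.03 ± 0.15 (SE; adjusted p = 0.000321). Tekt4 rose by 1.26 ± 0.19 (SE; adjusted p = 0.000343), Tekt1 by 0.94 ± 0.14 (SE; adjusted p = 0.000357), Ccdc113 by 1.27 ± 0.25 (SE; adjusted p = 0.00216) and Ift74 by 0.81 ± 0.16 (SE; adjusted p = 0.00238). All 5 transport members rose, as did 6 of 8 dynein, 5 of 7 spoke and central pair and 4 of 6 microtubule members. Among anchors, Dnah5 (0.99 ± 0.23, adjusted p = 0.00742), Foxj1 (0.48 ± 0.13, adjusted p = 0.0166) and Rsph1 (0.60 ± 0.18, adjusted p = 0.0304) rose, and Tekt2 (0.02 ± 0.19, adjusted p = 0.946) did not pass. The member that fell was Ccno, with a difference of -0.30 ± 0.10 (SE; adjusted p = 0.0465), named after its value was seen. So was Rsph4a, which had the largest difference of all members, 2.04 ± 0.40 (SE; adjusted p = 0.00242). Without control 3 hr replicate 3 the median was 0.60, 16 members rose and none fell, and Foxj1 and Rsph1 no longer passed. Without control 72 hr replicate 2 it was 15 members called, again without Foxj1 and Rsph1. Shares of all genes called without these arrays are not given, so these counts are not read as particular to the members. In female arrays alone, with a single array at 3 hr, the median was 0.73. Over the same interval 8 of 9 mitosis genes (median 2.12), 8 of 11 fibroblast (0.66), 5 of 12 alveolar type 2 (0.34), 4 of 10 smooth muscle (0.49) and 4 of 10 macrophage markers (0.50) rose. Of 14 club cell markers 4 fell and 1 rose (-0.34). Their part in the members' change was not tested.

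In Cebpa d/d 11 members rose from 3 to 72 hr, against 4.88% of all genes, with a median of 0.53, against -0.000121 for all genes, and 34 of 35 above 0, where 50% of genes were below it. Arrays did not overlap, with 72 hr higher, for 29 members, against 15.3% of genes. All 11 had risen in control over the same interval, where 4.22% of all genes rose in both. Dynlrb2 rose by 0.85 ± 0.13 (SE; adjusted p = 0.00088), Ift80 by 0.59 ± 0.10 (SE; adjusted p = 0.00179), Tekt4 by 0.99 ± 0.19 (SE; adjusted p = 0.00429) and Efcab10 by 0.59 ± 0.12 (SE; adjusted p = 0.00762). Tekt1 (0.56 ± 0.14, adjusted p = 0.0217), Zmynd10 (0.81 ± 0.21, adjusted p = 0.0221), Ift172 (0.42 ± 0.11, adjusted p = 0.0222), Ift81 (0.56 ± 0.15, adjusted p = 0.0272) and Dnah5 (0.81 ± 0.23, adjusted p = 0.0398) rose as well. Foxj1 (0.36 ± 0.13, adjusted p = 0.101), Rsph1 (0.49 ± 0.18, adjusted p = 0.117) and Tekt2 (0.08 ± 0.19, adjusted p = 0.877) did not pass. In female arrays alone, again with a single array at 3 hr, the median was 0.37. Leaving out Cebpa d/d 72 hr replicate 1 gave 7 members called and a median of 0.53. Leaving out Cebpa d/d 3 hr replicate 1 or 3, or 72 hr replicate 2 or 3, gave 4 or 5 called. With sex as a covariate 4 were called. Shares of all genes called under these settings are not given, so these counts are not read as particular to the members. Mitosis genes rose over this interval, 9 of 9 (median 1.78), as did 5 of 11 fibroblast markers (0.50), and 2 of 14 club cell markers fell (-0.36), against 3.67% of all genes called lower. Their part in the members' change was not tested. The comparisons of 72 hr with 0 and with 3 hr share the 72 hr arrays.

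A list of 156 other motile cilia genes, drawn from textbook knowledge and written with earlier results of these data known, had 147 measured genes. Between 0 and 72 hr 53 of them rose in control and 74 in Cebpa d/d, with medians of 0.45 and 0.65, against 4.95% and 3.39% of all genes, and between 3 and 72 hr 92 and 59 rose, against 11.2% and 4.88%. Nme7, of the nucleoside diphosphate kinase family found in axonemes, rose by 0.86 ± 0.12 (SE; adjusted p = 0.000511) in control and 0.93 ± 0.12 (SE; adjusted p = 0.000163) in Cebpa d/d. Cfap126 (0.93 ± 0.13, adjusted p = 0.000509), Tctex1d4 (1.45 ± 0.20, adjusted p = 0.00056) and Tmem212 (0.99 ± 0.14, adjusted p = 0.000751) rose in control, and Efhc2 (1.65 ± 0.18, adjusted p = 6.1e-05), Nme5 (1.16 ± 0.14, adjusted p = 9.22e-05) and Tmem212 (1.20 ± 0.14, adjusted p = 0.000101) in Cebpa d/d. From 0 to 3 hr in Cebpa d/d 8 of the 147 rose, against 2.66% of all genes, led by Tmem212 (0.65 ± 0.14, adjusted p = 0.0138), Cfap53 (0.88 ± 0.20, adjusted p = 0.0163), Nme5 (0.59 ± 0.14, adjusted p = 0.02) and Fam183b (0.66 ± 0.16, adjusted p = 0.0257). The genotype difference at 0 hr had a median of -0.44, with 140 of 147 below 0, 0 called in limma and 75 lower at an unadjusted p under 0.05, against 4.03% of all genes. Averaged over the 3 times, Wdr66 was lower in Cebpa d/d, with a difference of -0.58 ± 0.11 (SE; adjusted p = 0.038). Between 0 and 72 hr in control 1 of the 147 fell, against 2.2% of all genes. This was Gmnc, with a difference of -1.22 ± 0.35 (SE; adjusted p = 0.0434). It acts at the start of the multiciliated cell programme and was named after its value was seen.

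Within groups, too, the members varied together. After group means were taken out, the median correlation between 2 members over the 18 arrays was 0.61 (595 pairs, 558 above 0), and 19 of 35 members correlated above 0.8 with the median of the others. Spag17 was closest, at 0.97, and Ccno was the single member below 0, at -0.21. Foxj1 was at 0.86, Ift80 at 0.64, Efcab10 at 0.48, Tekt2 at 0.34 and Rfx2 at 0.35. The median SD within groups was 0.26 for members and 0.15 for all genes. All genes share these 18 arrays, so the correlations are descriptions with no test. No correlation between pairs of all genes was taken to set beside them. Groups added unequally to the spread: array medians of the members ran from -0.60 to 0.15 in control at 3 hr. In Cebpa d/d at 72 hr they ran from 0.25 to 0.36. Genes were also ranked by their correlation with the median of all 35 members, which for a member includes its own values. Of the 40 genes most like that median, with r from 0.91 to 0.97, 8 were members, 18 were on the list of other cilia genes and 14 on neither. The non-members closest to them were Ccdc181, Maats1, Dync2h1, Ccdc191 and Cep112.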

How the data were processed

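Total RNA of 18 samples was measured on Affymetrix arrays. The deposited values are log2 signals, made by the authors with RMA, per the submitters' processing notes; the RMA version and the genome build are not given in the sources used here, and the scanner files were not used here, so saturation was not examined. Of 35557 probe sets 21789 had 1 gene symbol, 1621 several and 12147 none, which gave 19938 genes, each by its probe set with the highest mean. Groups came from the labels. limma 3.58.1 in R 4.3.3 was fitted to all 6 groups at once (12 residual and 4.49 prior degrees of freedom), with Benjamini-Hochberg adjustment over 19938 genes within each of 12 contrasts and a threshold of 0.05. The steps were tested on simulated data. The number of arrays, 3 in a group, limits the precision.

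The members and gene lists were chosen with earlier results of these data known. Members named with differences were, in each contrast, up to 8 that passed with the smallest p, filled to 4 by unadjusted p, and Foxj1, Ift80, Efcab10, Tekt2, Dnah5 and Rsph1; of other cilia genes, up to 4 that passed. Same-numbered replicates of different groups were checked for pairing: over 45 such pairs of arrays the deviations from group means had a median correlation of -0.04, with 7 above 0.1, against 0.02 over 90 other pairs, so the numbers were not taken as pairs. Alternatives were array weights, a replicate block, centring, sex as a covariate, a trended and robust variance, the mean of probe sets, leaving out genes under the median level, the groups of a contrast alone, and each array left out. Female arrays alone, and leaving out 2 doubted arrays together, were chosen after seeing the data. Promoters came from RefSeq.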

Additional observations from a re-analysis of the deposited data

How the results depend on the processing

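No median difference over the members changed its sign under another setting, apart from that between genotypes at 3 hr, which lay between -0.17 and 0.16 with single arrays left out and between -0.10 and 0.03 under the other settings. In each setting the number of members called is given, against the main count in the report. The share of all genes called under each setting is not given here, so a changed count is not read as particular to the members. With array weights 18 were called between genotypes at 0 hr, 12 in the mean over the 3 times, 4 from 0 to 3 hr in control, 26 from 3 to 72 hr in Cebpa d/d and 1 in the interaction at 3 hr. With each array centred on its median, 1 was called from 0 to 3 hr in control. With sex as a covariate it was 0 in the mean over times, 1 from 0 to 3 hr in control, 16 from 3 to 72 hr in control, and 8 from 0 hr and 4 from 3 hr to 72 hr in Cebpa d/d. With the groups of each contrast alone it was 0 between genotypes at 0 hr, 0 from 0 to 3 hr in control and 23 from 3 to 72 hr in Cebpa d/d. Without the 2 doubted arrays, chosen after seeing the data, it was 5 at 0 hr and 3 in the mean. In female arrays, chosen likewise, a single array was left at 0 hr and at 3 hr in each genotype, so no count is given. The causes were not tested. A trended and robust variance, the mean of probe sets and leaving out dim genes moved no count by more than 1.5 times.

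With the replicate block, 1 member was called between genotypes at 0 hr, 0 in the mean over times and 1 from 0 to 3 hr in control, while 7, 23, 2, 18 and 9 were called from 0 to 72 hr and from 3 to 72 hr in control, and from 0 to 3, 0 to 72 and 3 to 72 hr in Cebpa d/d. The labels share only numbers, so a call lost there was not read as a smaller effect.

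With each array left out in turn, the called members were 0 to 4 between genotypes at 0 hr, with medians of -0.66 to -0.38; 0 to 0 at 3 hr, with -0.17 to 0.16; 0 to 0 at 72 hr, with -0.30 to -0.16; and 0 to 4 in the mean, with -0.29 to -0.17. In control they were 0 to 7 from 0 to 3 hr (-0.50 to -0.068, the latter without replicate 3 of the 3 hr group), 5 to 10 from 0 to 72 hr (0.23 to 0.55) and 15 to 29 from 3 to 72 hr (0.60 to 0.93). In Cebpa d/d they were 1 to 3 (0.18 to 0.29), 8 to 23 (0.70 to 0.82) and 4 to 15 (0.48 to 0.57). The interactions had 0 called, with 0.29 to 0.68 at 3 hr and 0.18 to 0.45 at 72 hr. A group of 3 arrays is small, so a member that did not pass may still differ. The signal over background of the arrays was not examined, since values were deposited after RMA.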
